A study of Mus musculus with 8 samples.

Results

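The 10 genes listed as marking Ddb1 knockdown in mouse embryonic stem cells are Csn3, Gfra1, Selenop, Irs4, Ndnf, Serinc5, Cass4, Mobp, Gabbr1 and Itpka. For 4 of them, Csn3, Mobp, Gabbr1 and Itpka, the siDdb1 arrays overlapped those of another knockdown. All 10 were picked by their measured change with siDdb1, as the genes rising or falling most clearly there. The rule does not name the groups that siDdb1 was set against, and the siNonTarget arrays are treated as part of the choice, so their siDdb1 values below are a description and carry no test. They are 10 of the 18193 genes that a probe set with a single symbol represents on the array, and 22 probe sets read them. Cells of the line NG4, labelled embryonic stem cells, were reverse transfected with an siRNA against Sox2 (siSox2), Psmd14 (siPsmd14) or Ddb1 (siDdb1), or with a non-targeting siRNA (siNonTarget). RNA was taken 48 h later, with 2 Affymetrix arrays in each of the 4 groups, and the labels name no strain, age or genetic change of the cells. All 8 arrays thus come from transfected cells, and untransfected cells were not analysed here. Nothing in the labels says that the 2 arrays of a group came from separate cultures, so the p-values below measure the spread between arrays, which may be technical.

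Ddb1 is the adaptor that links substrate receptors to the CUL4 ubiquitin ligases, which tag proteins for degradation or alter their activity. Psmd14 is the deubiquitinase of the proteasome lid, and Sox2 encodes a transcription factor that keeps stem cells pluripotent. The 10 genes form no single pathway. Csn3 encodes kappa-casein, Selenop a secreted carrier of selenium, and Ndnf a secreted neurotrophic factor. Gfra1 encodes the co-receptor for the growth factor GDNF, and Irs4 an adaptor downstream of the insulin and IGF receptors. Serinc5 encodes a multipass membrane protein that restricts retroviruses, and Cass4 a scaffold of focal adhesions. Mobp encodes a protein of compact myelin, Gabbr1 the GABA-binding subunit of the GABA-B receptor, and Itpka a kinase of inositol trisphosphate that also bundles actin.

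RefSeq promoter windows (build GRCm38.p6, 250 bases before to 50 after a start site) were found for 8 of the 10 genes, with 3 start sites for Selenop. The windows of 4 genes are printed to set windows of differing composition side by side. Selenop, Serinc5 and Cass4 were high in siDdb1, and Itpka was low. The Selenop window is chr15:3270727-3271026 (plus strand), that of Serinc5 chr13:92610888-92611187 (plus), that of Cass4 chr2:172393394-172393693 (plus) and that of Itpka chr2:119742087-119742386 (plus). Capitals mark matches to the motifs named in the next paragraph.
Selenop: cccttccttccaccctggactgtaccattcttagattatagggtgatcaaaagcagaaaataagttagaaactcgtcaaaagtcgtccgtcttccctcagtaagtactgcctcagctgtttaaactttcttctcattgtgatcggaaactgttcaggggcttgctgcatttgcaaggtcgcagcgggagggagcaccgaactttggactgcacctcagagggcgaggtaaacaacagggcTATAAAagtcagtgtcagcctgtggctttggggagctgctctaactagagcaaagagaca
Serinc5: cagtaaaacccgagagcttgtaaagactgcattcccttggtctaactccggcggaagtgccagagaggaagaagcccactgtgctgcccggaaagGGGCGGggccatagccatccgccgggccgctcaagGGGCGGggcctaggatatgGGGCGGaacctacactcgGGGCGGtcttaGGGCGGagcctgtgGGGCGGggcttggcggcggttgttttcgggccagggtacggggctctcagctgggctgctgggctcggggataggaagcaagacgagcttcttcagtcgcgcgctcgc
Cass4: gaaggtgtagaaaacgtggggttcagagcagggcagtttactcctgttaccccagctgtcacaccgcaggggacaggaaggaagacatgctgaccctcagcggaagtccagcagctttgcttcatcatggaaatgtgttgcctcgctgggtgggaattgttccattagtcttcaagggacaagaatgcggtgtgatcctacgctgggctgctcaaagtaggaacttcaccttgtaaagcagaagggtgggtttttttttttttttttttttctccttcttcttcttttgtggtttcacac
Itpka: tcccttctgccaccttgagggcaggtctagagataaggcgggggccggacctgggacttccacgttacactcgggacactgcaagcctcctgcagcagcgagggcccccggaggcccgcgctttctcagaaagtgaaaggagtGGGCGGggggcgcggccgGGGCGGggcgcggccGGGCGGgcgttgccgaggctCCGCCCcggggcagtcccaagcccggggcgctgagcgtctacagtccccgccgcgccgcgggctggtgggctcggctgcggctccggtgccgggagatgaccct

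Both strands were searched for 8 motifs. The GC box GGGCGG, bound by Sp factors, was found in 4 of the 8 genes, namely Irs4, Serinc5, Gabbr1 and Itpka, and in 35.7% of all 32851 windows. The Serinc5 window held 6 matches and the Itpka window 4. TATAAA, the core of the TATA box, was in 1 gene, Selenop (13.6% of all windows), CCAAT in 1, Gfra1 (37.4%), and the E-box CACGTG in 1, Irs4 (7.15%). TGANTCA (7.81% of all windows), TGACGTCA (1.79%), the octamer ATTTGCAT (1.74%) and the SOX motif CATTGTT (3.78%) had no match in these windows. GC content ran from 40.7% in a Selenop window to 73.7% in Itpka, against a median of 52.7% over all windows. The observed over expected CpG ratio ran from 0.316 in Selenop to 0.818 in Itpka, against a median of 0.384. Genes high and low in siDdb1 lay at both ends of the GC range: among those high, Serinc5 had 65.3% and Cass4 48%, and among those low, Mobp had 43.3% and Gabbr1 67.3%.

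The targeted transcripts and the cell type were checked first. Ddb1 signal was 22.1% of the control mean on siDdb1 replicate 1 and 46.1% on replicate 2. Sox2 signal in siSox2 was 83.6% and 69.8%, and the 2 arrays (12.10 and 11.84, log2) overlapped those of siPsmd14 (12.07 and 12.40). Psmd14 signal in siPsmd14 was 90.5% and 82.7%, just below every other array. Of the 3 targeted transcripts Ddb1 was thus the one that stood clearly apart. Median intensity per array ranged from 27.37 to 28.84, or 4.775 to 4.849 on the log2 scale without the control probe sets. All 8 pluripotency markers measured, Pou5f1 and Nanog among them, had means above the array-wide median, and Pou5f1 read 12.85 to 13.30 on the log2 scale. For fibroblasts, the usual feeder cells, 4 of 10 markers had means above the array-wide median. The collagen genes Col1a1 and Col3a1 read 3.20 to 4.20, below the array medians, while Col1a2 read 5.07 to 5.86, above them.

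In siDdb1, 7 of the genes were higher than in siNonTarget and 3 were lower. For 6 genes, Gfra1, Selenop, Irs4, Ndnf, Serinc5 and Cass4, both siDdb1 arrays lay above all 6 other arrays. By these brightest probe sets, no gene had both siDdb1 arrays below all 6 others. Of all genes, 4.56% had both siDdb1 arrays above the other 6 and 3.9% below. Since the genes were picked on these arrays, nothing is read from that count. The remaining 4 were high or low in other knockdowns too: Csn3 read as high in siPsmd14, and Mobp, Gabbr1 and Itpka were low in each of the 3 knockdowns. RNA came from whole cultures, in which a change in the number of cells of a type and a change in RNA per cell cannot be told apart.

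**Figure D1:**
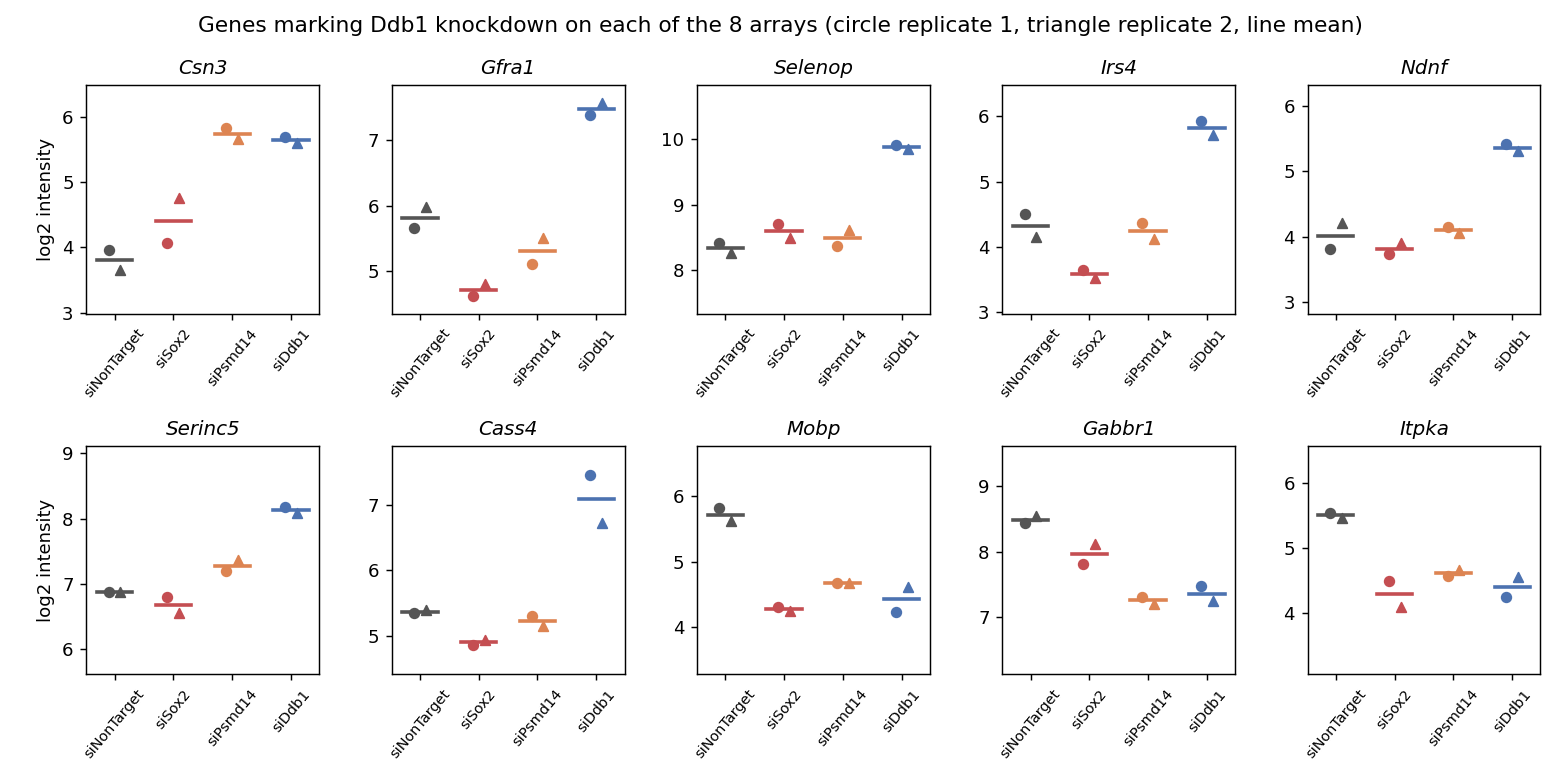
Log2 intensity (y axis, the same 3.5-unit height in each panel) of the brightest probe set of each of the 10 genes on the 8 arrays, by siRNA group (x axis). Circles are replicate 1, triangles replicate 2 and lines group means. Gfra1, Selenop, Irs4, Ndnf, Serinc5 and Cass4 are highest on both siDdb1 arrays, Csn3 is high in siPsmd14 and siDdb1, and Mobp, Gabbr1 and Itpka are highest on both siNonTarget arrays.

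Among the genes for secreted proteins, Selenop and Ndnf were high in siDdb1 and Csn3 in both ubiquitin-system knockdowns. Selenop, the most abundant carrier of selenium in plasma, read 8.41 and 8.26 (log2) in siNonTarget, 8.71 and 8.50 in siSox2, 8.37 and 8.61 in siPsmd14 and, on the siDdb1 arrays, 9.91 and 9.86. Its siDdb1 arrays agreed within 0.05, and the other 3 groups followed with siSox2, siPsmd14 and siNonTarget overlapping their neighbours in that order. The log2 difference of siDdb1 from siNonTarget was 1.55 (SE 0.14, n = 2 arrays per group), or 2.93-fold. Ndnf read 3.81 and 4.21 in siNonTarget, 3.73 and 3.90 in siSox2, 4.14 and 4.05 in siPsmd14 and, on the siDdb1 arrays, 5.41 and 5.31. The 3 lower groups overlapped, and all their arrays lay below the array medians. The difference of Ndnf was 1.35 (SE 0.16, 2.55-fold).

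Csn3, whose product stabilises the casein micelles of milk, did not set siDdb1 apart from siPsmd14. It read 3.96 and 3.65 in siNonTarget, 4.06 and 4.75 in siSox2, 5.82 and 5.66 in siPsmd14 and, on the siDdb1 arrays, 5.69 and 5.59. The siPsmd14 and siDdb1 arrays overlapped, and both groups lay above siSox2, which in turn lay above siNonTarget. The log2 difference from siNonTarget was 1.83 in siDdb1 (SE 0.22, 3.56-fold), 1.94 in siPsmd14 (3.83-fold) and 0.60 in siSox2 (1.52-fold). The 2 siSox2 arrays had an SD of 0.49, against 0.07 to 0.22 in the other groups.

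Both genes of growth factor reception were high in siDdb1 and lowest in siSox2. Gfra1, which presents GDNF to the receptor kinase RET, read 5.65 and 5.98 in siNonTarget, 4.62 and 4.80 in siSox2, 5.10 and 5.50 in siPsmd14 and, on the siDdb1 arrays, 7.38 and 7.57. No pair of groups next to each other in order overlapped, and siDdb1 stood 1.66 above siNonTarget (SE 0.18, 3.15-fold) and 2.77 above siSox2 (6.80-fold). That span of 2.77 was the widest between group means among the 10 genes. Irs4 read 4.50 and 4.15 in siNonTarget, 3.65 and 3.53 in siSox2, 4.36 and 4.12 in siPsmd14 and, on the siDdb1 arrays, 5.93 and 5.72. The siNonTarget and siPsmd14 arrays of Irs4 overlapped, and siSox2 lay below both. All Irs4 values outside siDdb1 lay below the array medians. The siDdb1 difference of Irs4 was 1.5 from siNonTarget (SE 0.16, 2.83-fold) and 2.24 from siSox2 (4.71-fold).

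Serinc5 and Cass4, of the plasma membrane and its adhesion sites, were also highest in siDdb1. Serinc5 read 6.87 and 6.88 in siNonTarget, 6.80 and 6.55 in siSox2, 7.20 and 7.36 in siPsmd14 and, on the siDdb1 arrays, 8.18 and 8.08. No neighbouring groups overlapped, and siPsmd14 came second. The log2 difference from siNonTarget was 1.25 in siDdb1 (SE 0.14, 2.38-fold) and 0.40 in siPsmd14 (SE 0.14, 1.32-fold). Cass4 read 5.35 and 5.39 in siNonTarget, 4.86 and 4.94 in siSox2, 5.30 and 5.15 in siPsmd14 and, on the siDdb1 arrays, 7.46 and 6.72. Its 2 siDdb1 arrays differed by 0.74, the widest gap among the 10 genes, and both stayed above every other array. The siDdb1 difference of Cass4 was 1.72 (SE 0.21, 3.30-fold) with both arrays, 2.10 without replicate 2 and 1.35 without replicate 1.

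Mobp, Gabbr1 and Itpka, known from oligodendrocytes and neurons, were highest on the control arrays. Mobp read 5.82 and 5.62 in siNonTarget, 4.31 and 4.25 in siSox2, 4.67 and 4.67 in siPsmd14 and, on the siDdb1 arrays, 4.23 and 4.62. The siDdb1 arrays overlapped those of siSox2, and siPsmd14 lay just above. The difference from siNonTarget was -1.30 in siDdb1 (SE 0.15), -1.44 in siSox2 and -1.05 in siPsmd14. Itpka read 5.54 and 5.46 in siNonTarget, 4.49 and 4.09 in siSox2, 4.57 and 4.67 in siPsmd14 and, on the siDdb1 arrays, 4.25 and 4.56. Its order was that of Mobp, with differences of -1.09 in siDdb1 (SE 0.17), -1.20 in siSox2 and -0.88 in siPsmd14.

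Gabbr1, of higher signal, took another order. It read 8.43 and 8.54 in siNonTarget, 7.81 and 8.11 in siSox2, 7.31 and 7.20 in siPsmd14 and, on the siDdb1 arrays, 7.47 and 7.24. The siDdb1 and siPsmd14 arrays overlapped at the bottom, and siSox2 lay between them and siNonTarget. Gabbr1 differed from siNonTarget by -1.12 in siDdb1 (SE 0.15), by -1.22 in siPsmd14 and by -0.52 in siSox2. All of these differences share the 2 siNonTarget arrays, on which the genes may have been picked, so a high or low value there shifts each of them at once.

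**Figure D2:**
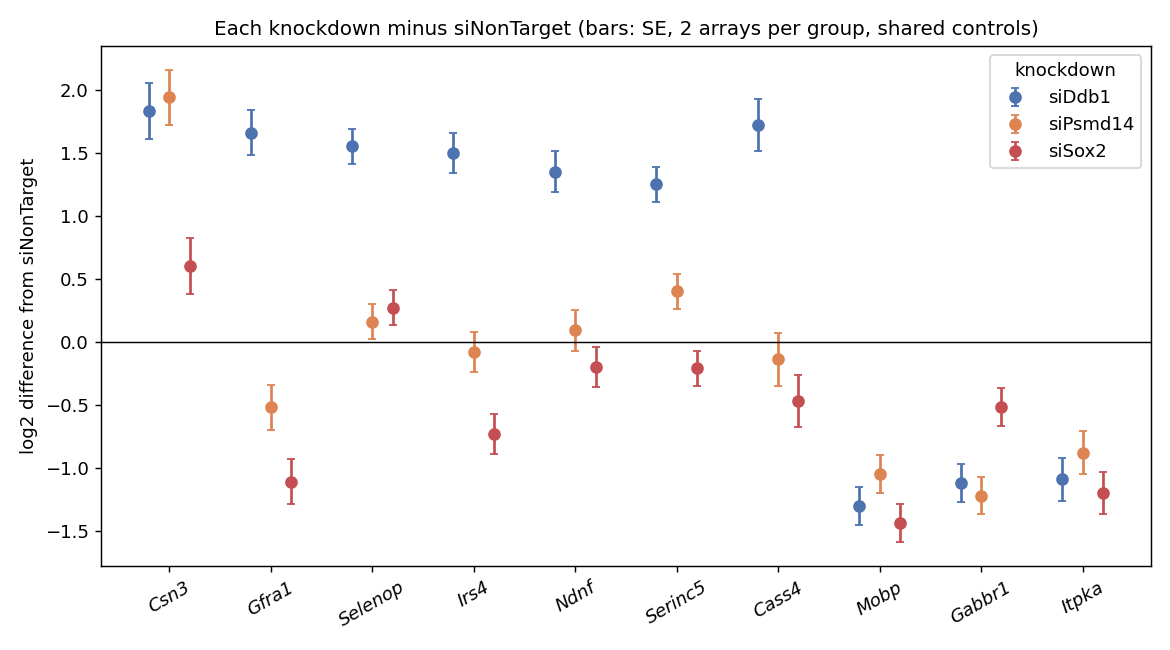
Log2 difference of each knockdown from siNonTarget (y axis) for the 10 genes (x axis), with SE from the limma fit and 2 arrays per group. Blue is siDdb1, orange siPsmd14 and red siSox2, all against the same siNonTarget arrays. Csn3 lies near 1.9 in siPsmd14 as in siDdb1, Gfra1 and Irs4 lie below 0 in siSox2, and Mobp, Gabbr1 and Itpka lie below 0 in each knockdown.

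For these genes the test was siPsmd14 against siSox2, with its own 4 arrays fitted alone. Neither the difference nor its spread then comes from a siDdb1 or siNonTarget array. The rule may also have set siDdb1 against siSox2 and siPsmd14. If it did, the p-values of this fit are not independent of the choice either. In that fit none of the 10 genes passed, while 0.797% of all genes were higher and 0.726% lower. At an unadjusted p under 0.05 the limma fit had 6 of the 10 genes and 3132 of all genes. Csn3 had the smallest p, with a log2 difference of 1.34 (SE 0.24, 95% interval 0.76 to 1.91, limma adjusted p = 0.0725). Gabbr1 was next, at -0.71 (SE 0.15, interval -1.08 to -0.33, limma adjusted p = 0.116). Irs4 gave 0.65 (limma adjusted p = 0.123), Serinc5 0.61 (0.148) and Gfra1 0.59 (0.214). Selenop had the smallest difference, -0.12 (interval -0.49 to 0.26, limma adjusted p = 0.814). Ndnf (0.28), Cass4 (0.32), Mobp (0.39) and Itpka (0.33) had limma adjusted p-values from 0.244 to 0.477. The median difference of the 10 was 0.36, against 0.02 over all genes.

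The fit of all 8 arrays takes its spread partly from the arrays on which the genes were picked, so its p-values for them are not independent of the choice. There the limma adjusted p was 0.0156 for Csn3 and 0.0432 for Gabbr1, so 1 gene was past the threshold upwards and 1 downwards, with 1.98% of all genes higher and 2.05% lower. Gabbr1 was not past it without any one of the 8 arrays, with limma adjusted p-values from 0.0519 (without a siDdb1 array) to 0.273 (without siSox2 replicate 2). Csn3 was not past it without siPsmd14 replicate 1 (1.25, limma adjusted p = 0.1). Serinc5 had a limma adjusted p of 0.0531, and was past the threshold with the dimmer probe sets left out (0.0496 and 0.049 under the 2 filters) and with 1 probe set per gene (0.0382). Markers of trophoblast also differed between these groups, with 6 of 10 lower in siPsmd14 than in siSox2, and their part in these values was not tested.

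**Figure D3:**
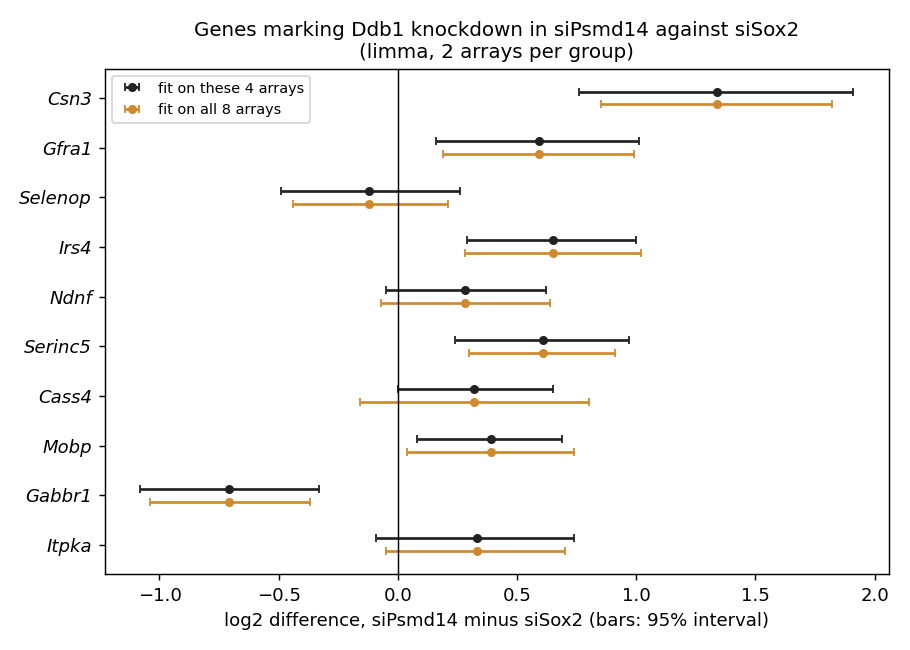
Log2 difference of siPsmd14 from siSox2 (x axis) for the 10 genes (y axis), with 95% intervals from limma. Black is the fit on the 4 arrays compared and orange the fit on all 8 arrays. Csn3 lies farthest to the right at 1.34 and Gabbr1 farthest to the left at -0.71, and no gene passed in the fit on 4 arrays.

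Gene by gene, the probe sets did not always give the same reading. Cass4, Itpka, Selenop and Serinc5 each have 1 probe set with a single symbol, and the other 6 genes share the remaining 18. The second probe set of Csn3 gave a log2 difference of 0.04 between siDdb1 and siNonTarget, that of Ndnf 0.01 and that of Irs4 -0.29. Those of Gfra1 gave 0.36 and 0.51, and their siDdb1 arrays also lay above all 6 others. All 5 of these read low, with siNonTarget means of 2.71 to 3.77. Among the 3 further probe sets of Gabbr1, the brighter pair gave -0.91 and -0.59, the second with both siDdb1 arrays below all 6 others, and the dimmest, with a mean of 3.10, gave 0.06. The 4 further probe sets of Mobp gave -0.14 to -0.72. By their brightest probe sets, Mobp and Itpka had means of 4.77 and 4.70 over the 8 arrays, near the array medians. Irs4 and Ndnf had lower means, 4.50 and 4.32. In siPsmd14 against siSox2, fitted on the 4 arrays, none of the other 12 probe sets passed (limma adjusted p from 0.179 to 0.977, with 2 at an unadjusted p under 0.05). The second one of Csn3 gave -0.03, and those of Gabbr1 gave -0.49, -0.17 and 0.03.

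**Figure D4:**
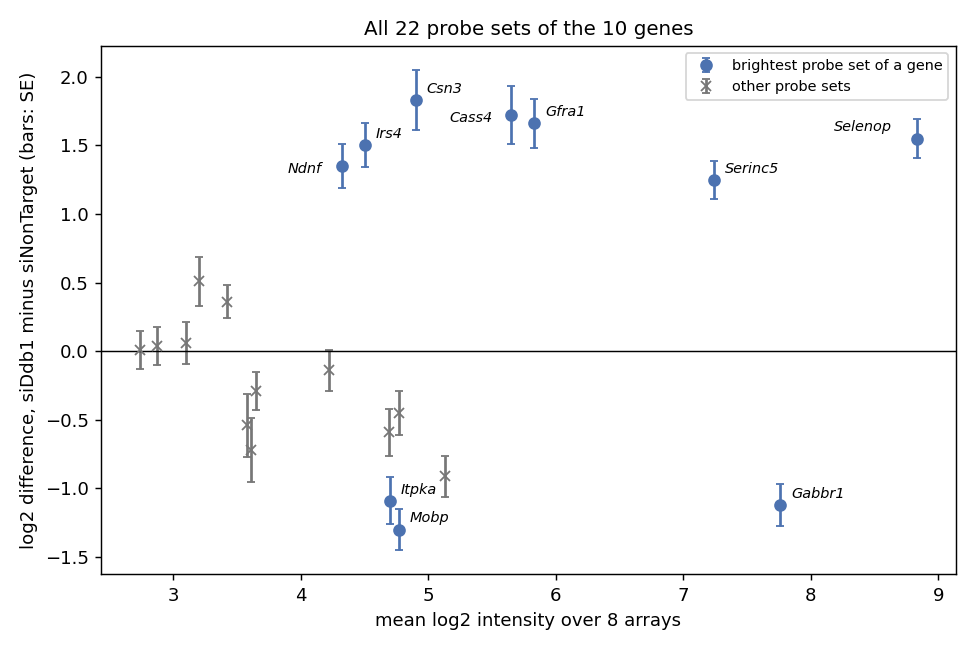
Log2 difference of siDdb1 from siNonTarget with SE (y axis) against the mean log2 intensity over 8 arrays (x axis) for the 22 probe sets. Blue points are the brightest probe set of each gene and grey crosses the other 12. The crosses between 2.74 and 3.10 on the x axis lie near 0, and the brightest cross, of Gabbr1 at 5.13, lies at -0.91.

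The 2 siDdb1 arrays differed in how much Ddb1 signal was left, 9.67 on replicate 1 and 10.73 on replicate 2 (log2). The distance from the siNonTarget mean was larger on replicate 1 for 8 of the 10 genes, and so it was for 58.3% of all genes. Gfra1 (1.57 and 1.75) and Gabbr1 (-1.01 and -1.24) were the 2 genes farther away on replicate 2. The widest gaps between the 2 arrays were those of Cass4 (2.10 and 1.35), Mobp (-1.49 and -1.10) and Itpka (-1.24 and -0.94). Signal of the 18S rRNA probe set was 11.28 on siDdb1 replicate 1 and 12.05 on replicate 2, against 10.42 to 12.51 on the other arrays. Its part in these values was not tested.

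By the limma p of siDdb1 against siNonTarget, the 10 genes held ranks from 1 (Selenop) to 29 (Itpka) among all genes. They were picked for their change with siDdb1, so nothing is read from these high ranks. The list follows no single threshold of that p. Hes6, at rank 2 with a difference of 1.44, and Hoxd13, at rank 7 with 1.22, are not among the 10. Across the 8 arrays the 7 genes high in siDdb1 correlated with each other with a median Pearson r of 0.904 over 21 pairs (0.375 to 0.967). Csn3 gave the low end. Mobp and Itpka correlated at 0.981, and Gabbr1 at 0.641 with Mobp and 0.604 with Itpka. These values rest on 4 groups of 2 arrays, and the arrays that chose the genes are among them.

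Outside the list, the genes of most similar pattern were sought among 11219 genes with a mean log2 value of at least 5. The standardised mean profile of the 7 high genes stood at 1.53 and 1.33 in siDdb1 and between -0.80 and -0.13 elsewhere. The 5 genes closest to it over the 8 arrays were Hes6, a regulator of neurogenesis (Pearson r = 0.985), Dnal1 (0.976), Themis2 (0.970), the adhesion receptor gene Icam1 (0.960) and the ERK phosphatase gene Dusp6 (0.960). Their differences between siDdb1 and siNonTarget were 1.44, 0.39, 1.05, 0.26 and 1.11 in that order. The profile of Mobp, Gabbr1 and Itpka was 1.51 and 1.41 in siNonTarget and between -0.76 and -0.36 on the other arrays. Closest to it were Asrgl1 (0.970), A930013F10Rik (0.969), the chromatin remodeller subunit gene Smarcb1 (0.969), the mitochondrial ribosomal protein gene Mrps15 (0.957) and the cell cycle regulator Mybl2 (0.944). These 5 were lower in siDdb1 by smaller amounts, with differences of -0.59 to -0.24.

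Relatives of the 10 genes were read from 10 lists of families and pathways, of which 105 of 117 genes were measured. None of the 105 passed in siDdb1 by limma, 16 had an unadjusted p under 0.05, and their median difference was -0.01, that of all genes. Of all genes, 0.044% were higher and 0% lower in siDdb1, with 1065 higher and 729 lower at an unadjusted p under 0.05. In siSox2, 3 relatives were higher and 1 lower (2.81% and 1.46% of all genes). In siPsmd14, 4 were higher and none lower (1.7% and 0.187% of all genes). In siPsmd14 against siSox2, 4 were higher and 1 lower (1.98% and 2.05% of all genes). Without siNonTarget replicate 1, or without siNonTarget replicate 2, no relative passed in siSox2 or siPsmd14. None passed in siSox2 without siSox2 replicate 2, or in siPsmd14 without siPsmd14 replicate 1. In siPsmd14 against siSox2 none passed without siSox2 replicate 2, and 1 passed without siPsmd14 replicate 1.

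Beside Irs4, the adaptor gene Irs2 was higher in siSox2 (1.18, limma adjusted p = 0.0185) and siPsmd14 (1.12, adjusted p = 0.0392), while its difference in siDdb1 was 0.93 (adjusted p = 0.244). Irs3 was higher in siSox2 (1.05, limma adjusted p = 0.00599) and lower in siPsmd14 than in siSox2 (-0.90), at means of 3.11 to 4.16 that lie below the array medians. These were 2 of 14 genes of insulin and IGF signalling in siSox2 and 1 of 14 in siPsmd14. Of 9 measured genes around GDNF, the ligand gene Artn was higher in siPsmd14 (0.82, limma adjusted p = 0.0482). In siDdb1 the adhesion receptor Ncam1, which also binds GDNF, had the smallest p of that list (-1.05, adjusted p = 0.246). Among 4 other SERINC genes Serinc3 was higher in siPsmd14 (0.91, limma adjusted p = 0.0464) and gave 0.59 in siDdb1 (adjusted p = 0.39).

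Of 30 genes of selenoproteins and selenium supply none passed in a knockdown against control. In siPsmd14 against siSox2, the glutathione peroxidase gene Gpx2 (2.38, limma adjusted p = 0.0164) and Secisbp2, which binds the selenocysteine insertion element (0.57, adjusted p = 0.0422), were higher. Beside Itpka, its paralog Itpkb was the 1 of 10 inositol phosphate kinase and receptor genes that passed, higher in siPsmd14 by 0.92 (limma adjusted p = 0.0159). Of 11 other myelin genes, Myrf, a regulator of myelin genes, was lower in siSox2 (-0.88, limma adjusted p = 0.0353) and gave -0.53 in siDdb1 (adjusted p = 0.467). Mal was higher in siPsmd14 than in siSox2 (0.82, limma adjusted p = 0.0148). Of 5 genes with fibronectin type III domains like that of Ndnf, Fndc3b was higher in siSox2 (1.39) and Fndc3a was higher in siPsmd14 than in siSox2 (0.65). None of 9 casein and milk protein genes, 6 CAS adaptor genes and 7 GABA signalling genes passed in any of the 4 comparisons by limma. The smallest p in siDdb1 in those lists was that of Elf5 (0.22, adjusted p = 0.72), Efs (0.46, adjusted p = 0.509) and Abat (-0.31, adjusted p = 0.739).

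Cell type markers were summed on the intensity scale for each array. The 8 pluripotency markers summed to 37300 and 42180 in siNonTarget, 28090 to 31210 in siSox2, 30410 to 34670 in siPsmd14 and 34880 to 35730 in siDdb1. Their sums were thus highest on the control arrays, and Esrrb was lower in siSox2 (-0.58, limma adjusted p = 0.0399). Taken singly, Sox2 and Dppa4 had log2 means of 12.36 and 11.88 in siDdb1 against 12.35 and 11.83 in siNonTarget. The other pluripotency markers had their highest group mean in siNonTarget. The 10 neuron markers summed to 4852 and 6112 in siNonTarget, 3557 and 3407 in siSox2, 5306 and 5325 in siPsmd14 and, on the siDdb1 arrays, 4284 and 4834. Stmn2 held most of this sum, with a mean intensity of 3770 in siNonTarget and 2590 in siDdb1. In siDdb1 none of the 10 neuron markers passed by limma, and their median log2 difference was -0.05. Of that list Neurod1, a neurogenic factor, read 8.25 and 8.56 in siNonTarget, 6.29 and 6.08 in siSox2, 8.83 and 9.19 in siPsmd14 and, on the siDdb1 arrays, 9.75 and 9.56. It was lower in siSox2 (-2.22, limma adjusted p = 0.000503), and its difference in siDdb1 was 1.25 (adjusted p = 0.0853). By group means, siDdb1 was also highest and siSox2 lowest for Gfra1, Irs4, Ndnf, Serinc5 and Cass4, though for Ndnf siSox2 overlapped siNonTarget. These genes were picked for their change with siDdb1, and the share of all genes with this order was not taken. Nothing is therefore read from the shared order. The 10 trophoblast markers summed to 2009 to 2193 in siNonTarget, 10130 to 17590 in siSox2, 6762 to 7185 in siPsmd14 and 2663 to 2768 in siDdb1. By limma 7 of them were higher in siSox2 and 2 in siPsmd14, where the keratin gene Krt8 held most of the sum, with a mean intensity of 5620 against 910 in siNonTarget. Plac1 (41.2), Ascl2 (99.4) and Cdx2 (45.8) had low mean intensities in siPsmd14. The 10 primitive endoderm markers summed to 265.4 on both siNonTarget arrays, 553.7 and 785.1 in siSox2, 333.4 to 351.9 in siPsmd14 and 308.3 to 338.9 in siDdb1, and 5 of them had means above the array-wide median. The 10 fibroblast markers summed to 226.6 to 246.4 in siNonTarget and 250.5 to 251.8 in siDdb1, and 221.5 to 317.8 elsewhere. No marker reads 0 in values of this kind, and the part of these cell types in the results was not tested.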

How the data were processed

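Total RNA (5 ng per sample) was amplified and labelled as biotinylated cDNA and hybridised to Affymetrix arrays, per the labels' protocols. The deposited intensity values of 45101 probe sets on a linear scale come from RMA, per the submitters' processing notes. Its version and settings are not stated in the labels. RMA usually equalises the distributions of arrays, so a difference is relative to most other probe sets. Detection calls were not used here.

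The 64 control probe sets were left out, log2 was taken, and the 8 arrays of 4 groups entered 1 linear model (limma 3.58.1, R 4.3.3, lmFit and eBayes, no replicate block). P-values were adjusted by Benjamini-Hochberg over 45037 probe sets, with a threshold of 0.05. For the 10 genes, siPsmd14 against siSox2 was also fitted on those 4 arrays alone and that fit is reported first, since the spread in the 8-array model includes the arrays that chose the genes; that choice was made after the data were seen. GEO's platform annotation gave 34945 probe sets 1 symbol, 932 several and 9160 none. All 10 genes matched the RefSeq gene table by Entrez identifier under the same symbol. A gene is read by its probe set of highest mean log2 value unless another is named. The genes and lists were chosen with earlier results of these data known. All 10 genes are named throughout, and from each list those that passed (at most 4) or those of smallest p. The scripts were tested on simulated data. Precision is limited by having 2 arrays per group, with a median SE of 0.151 for a log2 difference.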

Additional observations from a re-analysis of the deposited data

How the results depend on the processing

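The alternatives were other scalings, filters on dim probe sets, other estimates of spread, the replicate number as a block, a stricter threshold, 1 probe set per gene and leaving out each array. Of the 10 genes, 2 passed in siPsmd14 against siSox2 in the 8-array fit. With the dimmer 50% left out, 3 of the 6 genes kept passed, and with mean log2 values under 5 left out, 2 of the 5 kept. With 1 probe set per gene 3 of the 10 passed. Of the 10, 1 passed with quantile normalization, with eBayes trend and robust and with array weights. With only the 4 arrays or an adjusted p of 0.01, 0 passed. Relatives passing numbered 4 in siSox2 (1 at an adjusted p of 0.01) and 4 in siPsmd14 (2 with only the 4 arrays, 1 with array weights, 0 at 0.01). The filters on dim probe sets left 74 and 70 of the 105 relatives, of which 2 passed in siPsmd14 under either filter. In siPsmd14 against siSox2 they numbered 5 (0 with the 4 arrays or at 0.01, 0 to 4 without an array). In siDdb1 they numbered 0 in each alternative. Selenop in siPsmd14 against siSox2 turned from -0.12 to 0.01 without siPsmd14 replicate 1, and was -0.24 without replicate 2. Genes whose siDdb1 arrays lay beyond all other arrays, above or below, numbered 6 with every array. They numbered 7 without siDdb1 replicate 2 and 6 without any other array. The added gene was Mobp, which lay below: 4.23 on siDdb1 replicate 1, against 4.25 as the lowest value elsewhere.

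Over all genes, 734 passed in siPsmd14 against siSox2 (277 with the 4 arrays, 203 at 0.01, 205 to 843 without an array), 778 in siSox2 (242 at 0.01, 104 to 837) and 343 in siPsmd14 (54 at 0.01, 10 to 663). In siDdb1, 8 passed, with 13 under trend and robust, 0 with either filter, the 4 arrays or 0.01, and 0 to 98 without an array. Same-numbered arrays of different groups correlated at -0.217 to 0.242 in their deviations from group means, so the number was not taken as a pairing. With the replicate block the count of the 10 genes in siPsmd14 against siSox2 was 2 again: Irs4 passed (adjusted p = 0.0385 in limma) and Gabbr1 did not (0.0569). The block gave 2 genes in siDdb1, and 33 with the siDdb1 numbers crossed, a setting added after the data were seen.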

Other observations

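Some relatives of the 10 genes varied widely between the 2 arrays of a group. The glutathione peroxidase gene Gpx3, a secreted selenoprotein gene like Selenop, read 7.44 and 7.98 (log2) in siNonTarget, 7.96 and 8.54 in siSox2, 9.26 and 8.68 in siPsmd14 and, on the siDdb1 arrays, 9.45 and 8.34. Its difference in siDdb1 was 1.19 (SE 0.37, adjusted p = 0.418 in limma) and did not pass. Eomes, a T-box factor of trophoblast and mesendoderm, had the smallest p of the trophoblast markers in siDdb1 (1.41, limma adjusted p = 0.0853) and did not pass either.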
